A study of Mus musculus with 6 samples.

Results

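The tumour necrosis factor (TNF) superfamily was followed in mouse peritoneum, the serous lining of the abdomen, in an animal model of EPS, encapsulating peritoneal sclerosis, whose hallmark is a fibrous cocoon around the bowel. Members were taken by gene symbol: every Tnfsf (ligand) and Tnfrsf (receptor) symbol, and Tnf, Lta, Ltb, Ltbr, Cd40, Cd40lg, Fas, Fasl, Cd27, Cd70, Eda2r and Ngfr. This gave 40 genes, 14 ligands and 26 receptors, of the 14943 symbols in the count table. Cd70, Tnfsf4 and Tnfsf18 are not analysed here. All mice were male C57BL/6J animals of wild-type genotype aged 8 weeks, and peritoneum was taken in week 3. In the EPS group (3 libraries), daily injections into the peritoneal cavity held peritoneal dialysis solution (4.25%, 100 mL/kg) together with 0.3 mL of SHS, an abbreviation the labels leave unexplained, and weekly injections held 4 mg/kg of LPS, the endotoxin of Gram-negative bacteria. In the control group (3 libraries), saline at an equal volume replaced these agents. The EPS mice received every agent, so the effects of the single agents cannot be told apart. The labels do not say whether each library is 1 animal, and p-values judge the group difference against the spread between these libraries.

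Ligands of the TNF superfamily are trimeric proteins, most of them made on the cell membrane and some shed from it. Their receptors recruit TRAF adaptors, which lead to NF-kappaB, or, where they carry a death domain, FADD and caspase-8, which lead to cell death. In tissue, TNF and the lymphotoxins drive inflammation and the building of lymphoid structures, another group of members supports B cell survival and T cell costimulation, and RANK ligand is best known for osteoclast and lymphoid organ formation.

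Library totals ran from 15419232 to 17684229 counts, and the members took 0.0499% to 0.0522% of the counts in controls and 0.102% to 0.167% in EPS. Levels are given as CPM, the usual depth-scaled count, on library sizes adjusted by TMM factors, and changes as log2 fold changes of EPS over control ± standard error with p-values adjusted over all genes. EPS 1 stands apart by RNA of the exocrine pancreas: the 10 pancreatic markers summed to 161931 CPM there, against 179 to 534 in EPS 2 and EPS 3 and 354 to 4009 in controls. Markers of white blood cells moved with the groups. The 6 B cell markers summed to 6.15 to 11.2 CPM in controls and 439 to 764 in EPS, the 6 T cell markers measured to 5.55 to 6.15 and 289 to 592, and the 6 macrophage and monocyte markers to 473 to 537 and 2493 to 3385, and all of these genes were called higher. Of the 6 neutrophil markers, which summed to 4.10 to 4.50 CPM in controls and 320 to 759 in EPS, Ly6g alone had no count in the controls. The 8 mesothelial markers spanned 129 to 206 CPM in controls and 42.6 to 268 in EPS with none called, and the 6 fat cell markers fell from between 15756 and 16577 CPM to between 1129 and 1724. In whole tissue, a larger number of cells of a type and more RNA per cell cannot be told apart, and the part of these cell types in the changes below was not tested.

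Most of the superfamily was more abundant in the EPS libraries. At an adjusted p under 0.05, 26 of the 40 members were called higher and 5 lower, with a median log2 fold change of 1.81. Over all 13980 genes tested, 29.2% were called higher and 30.4% lower, 59.6% in all, with a median of -0.02. Ligands and receptors differed in these counts: 12 of 14 ligands were higher and none lower (median 4.05), while 14 of 26 receptors were higher and 5 lower (median 0.75); the difference between ligands and receptors was not tested. Changes of over 2-fold were called for 23 members, all of them higher, where 17.3% of all genes were called over 2-fold higher, and changes of over 16-fold for 11 members, against 3.73% of all genes. The CPM ranges of the groups did not overlap for 27 members higher in EPS and 6 lower, against 33.1% and 35.4% of all genes. All 40 members passed the filter on low counts, but 13 of them, 9 ligands and 4 receptors, passed only through the EPS libraries. These were Lta, Tnf, Tnfsf14, Tnfrsf13c, Tnfrsf17, Cd40lg, Tnfsf8, Tnfsf9, Tnfsf15, Tnfrsf8, Tnfrsf9, Fasl and Tnfsf11. For those 13, all called higher, the filter itself fixes the direction. This bears on the totals above: members called higher, over 2-fold, over 16-fold and without overlap. It also bears on every count by group below and on the contrast of ligands with receptors. Among the 27 members that reached the filter's level of 0.611 CPM in every control, 13 were higher and 5 lower. The shares of all genes above are no matched background for these 27, since they include genes that passed only through EPS. The share among all genes that reach this level in every control was not computed. With library totals in place of TMM factors, the fold change of the median gene moved by 0.42, 27 members were higher and none was lower, so each fall of a member reported below depends on the scaling.

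**Figure D1:**
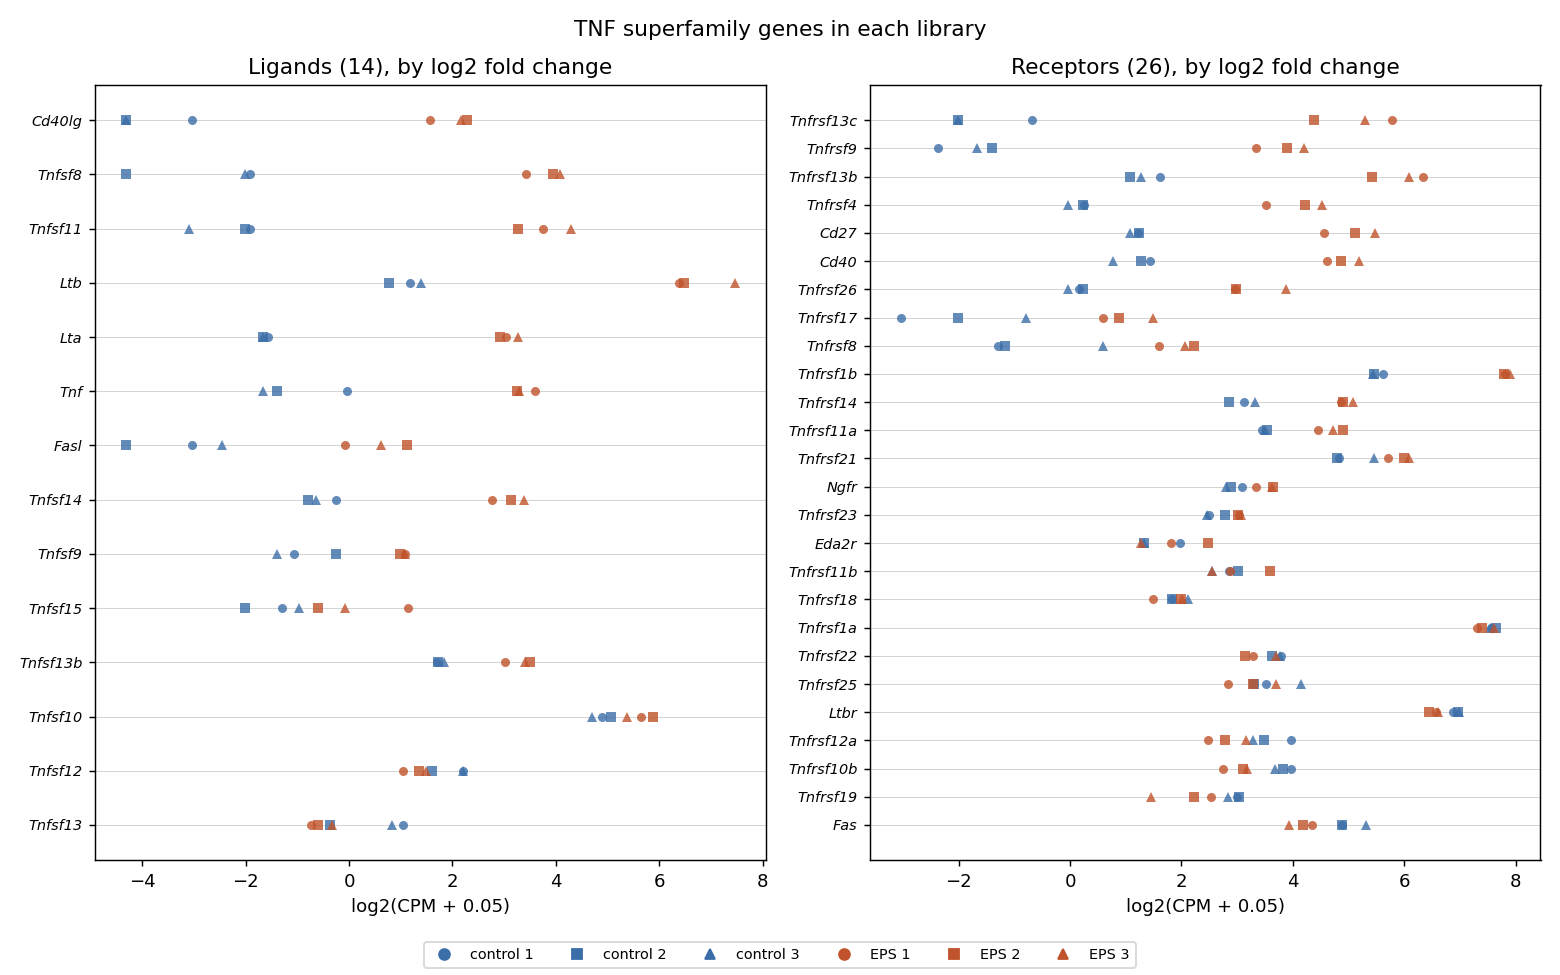
Level of each of the 40 members in every library, as log2(CPM + 0.05), with ligands on the left and receptors on the right, ordered by fold change; blue points are controls, orange points EPS, and shapes are libraries 1 to 3. For Ltb the 3 EPS libraries sit at 83.7 to 177 CPM and the controls at 1.65 to 2.58, whereas for Tnfrsf1a the groups overlap.

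Promoters are shown for 4 genes, chosen among the members that were called over 16-fold higher and have a match to a searched motif in the 250 bases before the transcription start. Entries were found for 32 of the 40 members in RefSeq (build GRCm38.p6). Ltb (chr17:35194257-35194506, plus strand) and Tnfrsf9 (chr4:150927749-150927998, plus strand, one of its 2 listed starts) hold the NF-kappaB consensus, and Tnf (chr17:35202008-35202257, minus strand) and Tnfsf11 (chr14:78308044-78308293, minus strand) hold TATAAA. Each is printed 5′ to 3′ along the gene with the match in capitals, and in Ltb and Tnfsf11 the match is read on the other strand. Only the motif named for each gene is in capitals: Tnfrsf9 also holds TGANTCA, 15 to 9 bases before the start.
Ltb: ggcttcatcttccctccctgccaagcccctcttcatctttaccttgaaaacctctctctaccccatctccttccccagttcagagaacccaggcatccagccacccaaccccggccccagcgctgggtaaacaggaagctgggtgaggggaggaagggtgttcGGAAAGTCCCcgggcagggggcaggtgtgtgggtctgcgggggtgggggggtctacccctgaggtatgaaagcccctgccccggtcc
Tnfrsf9: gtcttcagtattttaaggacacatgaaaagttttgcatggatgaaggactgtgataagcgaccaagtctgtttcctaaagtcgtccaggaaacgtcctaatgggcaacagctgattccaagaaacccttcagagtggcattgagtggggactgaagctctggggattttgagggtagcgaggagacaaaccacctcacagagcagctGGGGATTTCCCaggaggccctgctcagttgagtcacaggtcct
Tnf: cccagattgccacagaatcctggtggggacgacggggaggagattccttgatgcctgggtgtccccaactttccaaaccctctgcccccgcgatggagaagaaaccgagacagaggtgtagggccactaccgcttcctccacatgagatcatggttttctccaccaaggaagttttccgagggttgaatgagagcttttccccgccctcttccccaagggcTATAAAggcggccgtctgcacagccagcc
Tnfsf11: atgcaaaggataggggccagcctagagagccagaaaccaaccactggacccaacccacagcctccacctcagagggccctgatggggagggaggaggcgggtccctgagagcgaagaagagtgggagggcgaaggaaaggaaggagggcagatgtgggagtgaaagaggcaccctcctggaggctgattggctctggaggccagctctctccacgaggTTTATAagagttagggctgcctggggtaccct
The match in Ltb lies 87 to 78 bases before the start and the 2 overlapping matches in Tnfrsf9 lie 43 to 33 bases before it. TATAAA lies 29 to 24 bases before the start of Tnf and 32 to 27 bases before that of Tnfsf11. Both strands were searched for the NF-kappaB consensus, for the TATA box as TATAAA, for the AP-1 site as TGANTCA and for the octamer of B cell promoters as ATGCAAAT. Of the 32 members, 4 held the NF-kappaB consensus (Ltb, Tnfrsf8, Tnfrsf9 and Tnfrsf25), 6 TATAAA, 6 TGANTCA and 1, Eda2r, the octamer. Among 32851 promoters of the same length the shares were 7.25%, 12.4%, 6.75% and 1.60%. These shares count single promoter entries, whereas a member counted if any of its entries matched (36 entries for 32 members). The units thus differ. Genes with a match were not all called: Tnfrsf25, Eda2r, Tnfrsf23 and Tnfsf13 were not, and Fas, which holds TGANTCA, was lower. No binding was measured, and a match is a description of these letters only.

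In the TNF and lymphotoxin group, 6 of 8 members were higher and 1 lower, beside 29.2% and 30.4% of all genes. All 4 ligands were called higher, but Lta, Tnf and Tnfsf14 passed the filter only through EPS and could not have been called lower; of the 4 receptors, which all reached it in the controls, 2 were higher, 1 was lower and 1 was not called. Ltb encodes lymphotoxin beta, which anchors lymphotoxin alpha at the membrane of lymphocytes. It stood at 2.21, 1.65 and 2.58 CPM in controls 1 to 3 and at 83.7, 88.9 and 177 CPM in EPS 1 to 3. EPS 3 was the highest, and the groups were far apart: the log2 fold change was 5.76 ± 0.40 (edgeR adjusted p = 2.62e-05), or 54.1-fold. Lta, lymphotoxin alpha, had 0.286, 0.264 and 0.265 CPM in controls and 8.11, 7.47 and 9.61 in EPS. Its control libraries were nearly level and its change was 4.91 ± 0.30 (edgeR adjusted p = 7.02e-06). Tnf itself, made above all by macrophages and T cells, had 0.928, 0.330 and 0.265 CPM in controls and 12.1, 9.49 and 9.71 in EPS (4.35 ± 0.44; edgeR adjusted p = 7.52e-05). Control 1 held 13 of the 22 control counts of Tnf, and without it the change was 5.09. Tnfsf14, which encodes LIGHT, a ligand of both the lymphotoxin beta receptor and HVEM, had 0.786, 0.529 and 0.595 CPM in controls and 6.79, 8.74 and 10.5 in EPS, 13.5-fold higher. The 3 genes Ltb, Tnf and Lta lie within 10.9 kb on chromosome 17 (GRCm38, 35194439 to 35205351). Every EPS library exceeded every control for each of them, as for 33.1% of all genes tested. For Tnf and Lta the filter fixed that direction.

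Among the receptors of these ligands, Tnfrsf1b and Tnfrsf14 rose. Tnfrsf1b encodes TNFR2, the TNF receptor of leukocytes and endothelium, which has no death domain. Its levels were 49.2, 43.9 and 43.1 CPM in controls and 225, 222 and 238 in EPS, a 5.02-fold rise (2.33 ± 0.10; edgeR adjusted p = 2.14e-06) with little spread within either group. Tnfrsf14, which encodes HVEM, had 8.64, 7.20 and 9.99 CPM in controls and 29.1, 29.8 and 33.6 in EPS (1.84 ± 0.16). Tnfrsf1a, the death-domain receptor TNFR1 found on most cells, had 189, 201 and 185 CPM in controls and 158, 167 and 196 in EPS. The groups overlapped and it was not called (-0.14 ± 0.11, edgeR adjusted p = 0.300; 0.30 with library totals). Ltbr, the lymphotoxin beta receptor of stromal and myeloid cells, had 117, 125 and 127 CPM in controls and 94.999, 86.5 and 97.3 in EPS, which TMM scaling called lower (-0.40 ± 0.09; edgeR adjusted p = 0.00682) and library totals did not, at 0.018 (adjusted p = 0.938).

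Per kilobase of exon, Tnfrsf1a was the highest member in controls at 73.9 CPM per kilobase, followed by Ltbr at 52.2, Fas at 15.96, Tnfrsf1b at 11.9 and Tnfrsf21 at 8.10. In EPS, Ltb was first at 76.9, with Tnfrsf1a at 67.0, Tnfrsf1b at 59.8 and Ltbr at 39.5. Ltb in EPS spread from 83.7 to 177 CPM, so its place above Tnfrsf1a is within its own spread. In controls the ligand of highest CPM was Tnfsf10, with 63.7% to 75.4% of the summed CPM of the 14 ligands, and Ltb held 3.73% to 6.37%. In EPS, Ltb held 40.0% to 57.5% and Tnfsf10 13.5% to 26.5%.

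**Figure D2:**
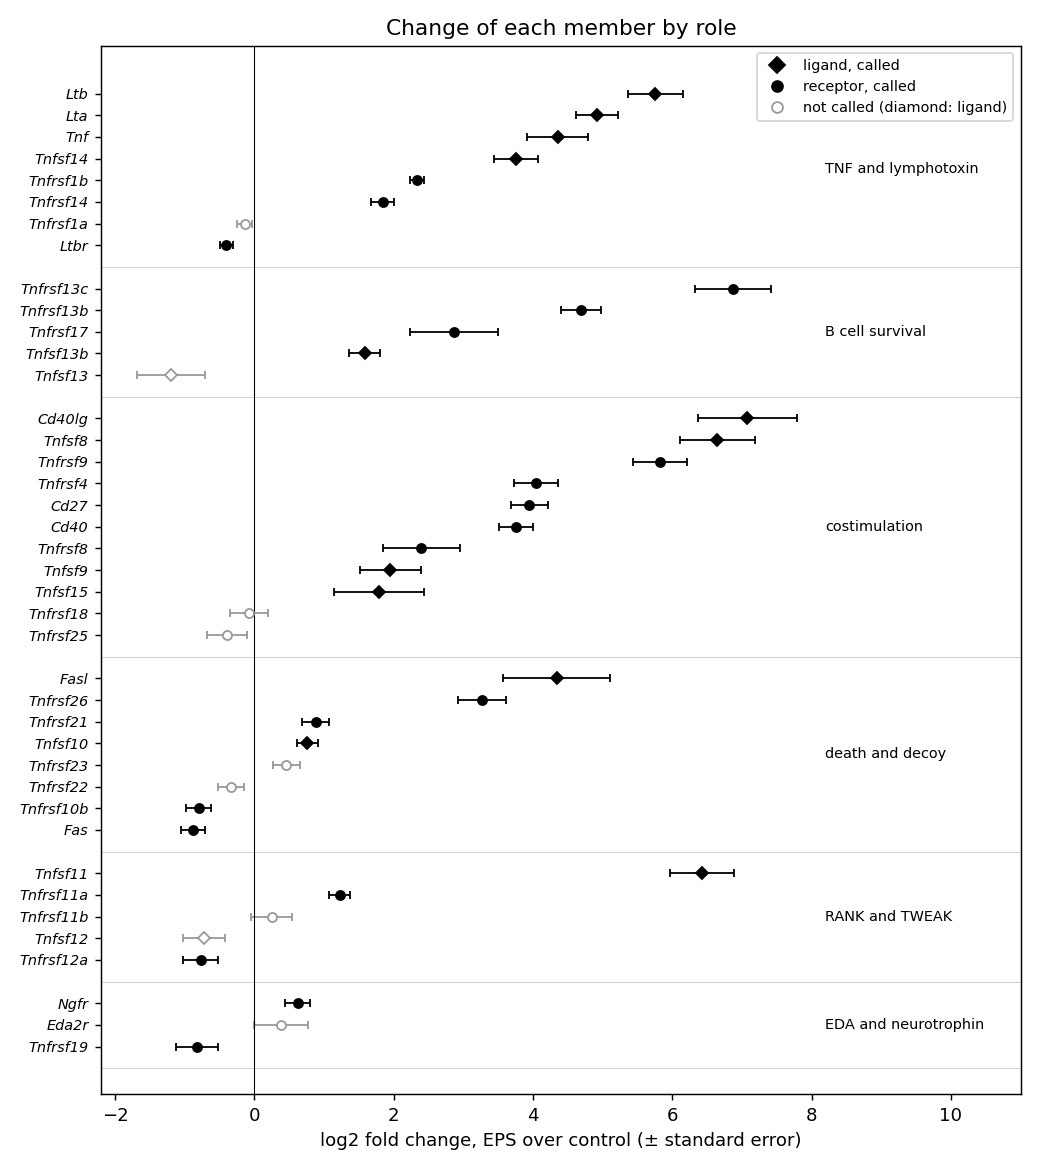
Log2 fold change of EPS over control (horizontal axis, ± standard error) for each member, grouped by role; diamonds are ligands, circles receptors, and filled symbols passed an adjusted p of 0.05. Values run from 7.08 for Cd40lg to -1.20 for Tnfsf13, which did not pass, and the falls that passed lie between -0.88 and -0.40.

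In the B cell survival group, 4 of 5 members were higher and none lower, beside 29.2% and 30.4% of all genes. The filter fixed the direction of Tnfrsf13c and Tnfrsf17. Tnfsf13b encodes BAFF, the survival factor of mature B cells that myeloid and stromal cells secrete. It had 3.21, 3.24 and 3.51 CPM in controls and 8.04, 11.3 and 10.5 in EPS (1.58 ± 0.22; edgeR adjusted p = 4.30e-04), 2.99-fold higher. Tnfrsf13c encodes the BAFF receptor, the receptor through which BAFF keeps mature B cells alive. It had 0.571, 0.198 and 0.198 CPM in controls and 54.7, 20.8 and 39.0 in EPS (6.87 ± 0.54; edgeR adjusted p = 3.81e-05; 7.53 without control 1). Tnfrsf13b, for TACI, a receptor of BAFF and APRIL, had 3.00, 2.05 and 2.38 CPM in controls and 80.9, 42.9 and 68.2 in EPS, 25.8-fold higher. EPS 2 was the lowest EPS library for these 2 receptors and for the summed B cell markers, but not for Tnfrsf17 or Cd40, which were lowest in EPS 1. Tnfrsf17, for BCMA, the receptor of plasma cells, had 0.0714, 0.198 and 0.529 CPM in controls and 1.46, 1.79 and 2.77 in EPS (2.87 ± 0.63; 3.81 without control 3). Its control sum was 12 counts. Tnfsf13, for APRIL, the ligand shared by TACI and BCMA, had 2.00, 0.727 and 1.72 CPM in controls and 0.554, 0.611 and 0.743 in EPS, and was not called (-1.20 ± 0.49; edgeR adjusted p = 0.0630; 0.0316 without control 2). Its exons overlap those of the read-through gene Tnfsfm13 and of Tnfsf13os on the opposite strand, and those of Tnfsf12 overlap Tnfsfm13, so reads of these genes cannot be told apart.

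Costimulatory members, which T cells, B cells and dendritic cells use to activate each other, were higher in 9 of 11 cases and lower in none, beside 29.2% and 30.4% of all genes. For 6 of the 9 (Cd40lg, Tnfsf8, Tnfsf9, Tnfsf15, Tnfrsf8 and Tnfrsf9) the filter fixed the direction; the other 3 were Cd40, Cd27 and Tnfrsf4. Cd40lg, the ligand by which helper T cells activate B cells, had 1 count over the 3 controls and 234 over the 3 EPS libraries, a ratio of 185 (exact 95% counting interval 32.9 to 7348), or 2.91, 4.84 and 4.41 CPM in EPS. The only control count lies in control 1. Its receptor Cd40, on B cells and antigen-presenting cells, had 2.64, 2.38 and 1.65 CPM in controls and 24.3, 29.2 and 36.5 in EPS (3.75 ± 0.24; edgeR adjusted p = 8.50e-06). Both partners of this pair were thus higher in every EPS library than in any control, as were 33.1% of all genes tested. For Cd40lg the filter fixed that direction.

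Tnfsf8, the ligand of CD30 on activated lymphocytes, had 0.214, 0 and 0.198 CPM in controls and 10.7, 15.3 and 16.9 in EPS (6.64 ± 0.54; edgeR adjusted p = 2.58e-05). Its receptor CD30, encoded by Tnfrsf8, had 0.357, 0.396 and 1.46 CPM in controls and 2.98, 4.65 and 4.11 in EPS (2.40 ± 0.55; 3.35 without control 3). Tnfrsf9 encodes 4-1BB, which activated T cells display, and had 0.143, 0.330 and 0.265 CPM in controls and 10.1, 14.8 and 18.4 in EPS, 56.6-fold higher. The change of its ligand gene Tnfsf9, at 0.428, 0.793 and 0.331 CPM in controls and 2.08, 1.93 and 2.08 in EPS, was 3.87-fold. Tnfsf9 shares exon bases with Gm11110 on the opposite strand.

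Tnfrsf4, for OX40 of activated and regulatory T cells, had 1.14, 1.12 and 0.926 CPM in controls and 11.4, 18.5 and 23.0 in EPS (4.05 ± 0.31; edgeR adjusted p = 1.99e-05). Cd27, a receptor of T cells and memory B cells, had 2.29, 2.31 and 2.05 CPM in controls and 23.6, 34.8 and 44.4 in EPS, 15.4-fold higher. EPS 1 was the lowest EPS library and EPS 3 the highest for Tnfrsf4, Tnfrsf9, Tnfsf8, Cd27 and Cd40, as for the summed T cell markers, whereas Cd40lg and Tnfrsf8 were highest in EPS 2, Tnfsf9 was lowest in EPS 2 and Tnfsf15 was highest in EPS 1. Tnfsf15, for TL1A, was called only narrowly, at 0.357, 0.198 and 0.463 CPM in controls against 2.15, 0.611 and 0.892 in EPS (1.79 ± 0.65, edgeR adjusted p = 0.0428; 1.20 and 0.130 without EPS 1), and lost its call in 9 of 15 alternative settings, with adjusted p between 0.0104 and 0.140. Its receptor gene Tnfrsf25, for DR3, had 11.4, 9.85 and 17.7 CPM in controls and 7.07, 9.68 and 12.9 in EPS and was not called (-0.39 ± 0.29; 0.06 with library totals). Tnfrsf18, for GITR, a receptor of regulatory and activated T cells, had 3.50, 3.50 and 4.30 CPM in controls and 2.77, 3.95 and 3.96 in EPS and was not called either (-0.08 ± 0.27, edgeR adjusted p = 0.823; 0.37 with library totals), although the 4 regulatory T cell markers, all called higher, summed to 7.20 to 8.995 CPM in controls and 45.0 to 70.3 in EPS. Tnfrsf18 overlaps Gm16008 on the opposite strand.

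**Figure D3:**
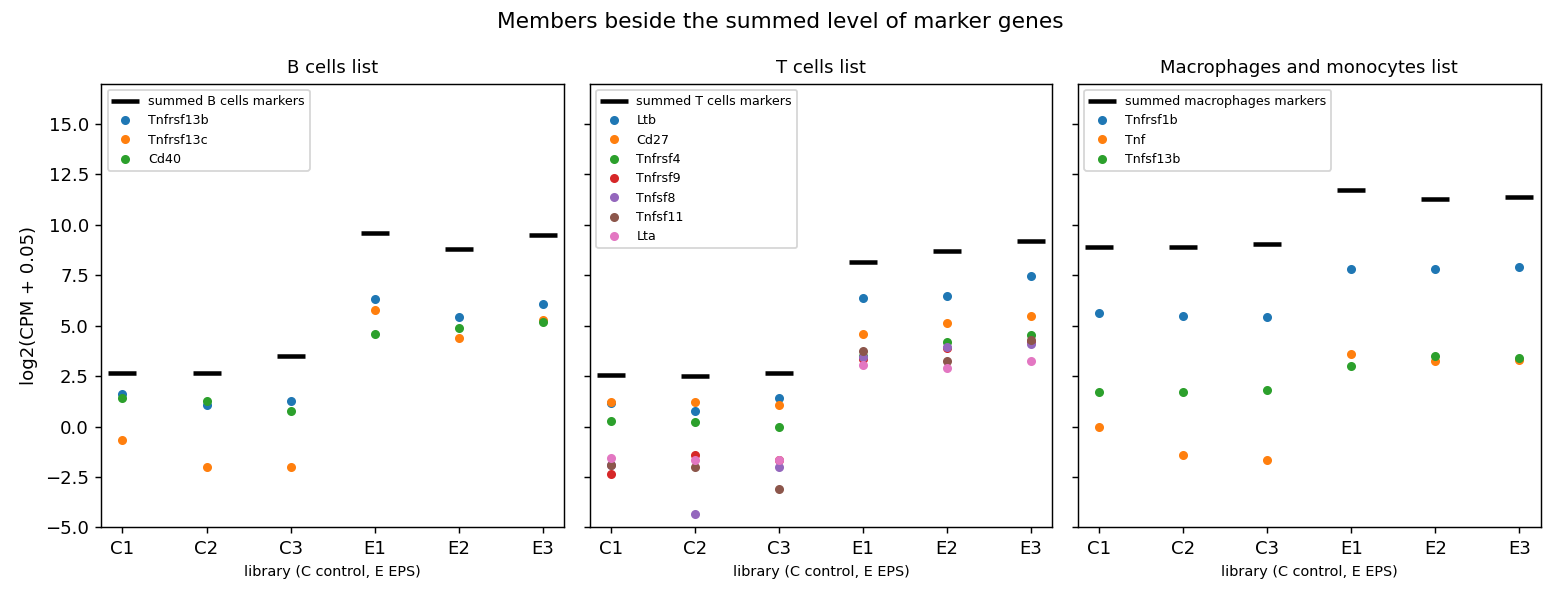
Levels of 13 members (coloured points) beside the summed level of the marker list of a cell type in which they are known (black bars), per library, as log2(CPM + 0.05). Marker sums were 80.9-fold higher in EPS for B cells, 74.2-fold for T cells and 5.76-fold for macrophages and monocytes, as ratios of group means.

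Set against the summed markers, the share of 6 of the 13 members was lower in every EPS library than in any control, that of 1, Tnf, was higher, and that of 6 overlapped. These ratios were chosen after values were seen and were not tested. A share falls for any gene that rises less than its marker sum. The sums rose 80.9-fold for B cells, 74.2-fold for T cells and 5.76-fold for macrophages and monocytes. The same count over all genes was not made. Tnfrsf13c equalled 1.76% to 8.99% of the summed B cell markers in controls and 4.74% to 7.17% in EPS, so the ranges overlapped. Tnfrsf13b lay between 21.2% and 47.2% in controls and between 9.48% and 10.6% in EPS, and Cd40 between 14.7% and 41.6% and then between 3.19% and 6.65%. Relative to the T cell markers, Cd27 lay between 33.3% and 41.7% in controls and between 7.504% and 8.36% in EPS, and Tnfrsf4 between 15.1% and 20.2% and then between 3.89% and 4.44%. Lta lay between 4.30% and 4.94% in controls and between 1.62% and 2.80% in EPS. Ltb lay between 29.8% and 41.9% in controls and between 21.4% and 29.96% in EPS, a narrow overlap. For Tnfrsf9 the ranges, 2.47% to 5.95% in controls and 3.11% to 3.56% in EPS, overlapped, as did those of Tnfsf8, at most 3.70% and then 2.86% to 3.71%, and of Tnfsf11, 1.08% to 3.70% and then 2.30% to 4.67%. Relative to the macrophage and monocyte markers, Tnf lay between 0.0492% and 0.196% in controls and between 0.356% and 0.381% in EPS. Tnfsf13b lay between 0.653% and 0.684% in controls and between 0.237% and 0.452% in EPS. Tnfrsf1b overlapped, with 8.03% to 10.4% in controls and 6.63% to 8.90% in EPS.

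Of the 8 members tied to cell death, 4 were higher and 2 lower, beside 29.2% and 30.4% of all genes, and the filter fixed the direction of Fasl. Fasl, the ligand of cytotoxic lymphocytes that kills through Fas, had 3 counts in controls and 88 in EPS, a ratio of 23.2 (exact 95% counting interval 7.69 to 115). In EPS it stood at 0.901, 2.11 and 1.49 CPM. Fas had 29.5, 29.6 and 39.6 CPM in controls and 20.2, 18.2 and 15.3 in EPS. The groups did not overlap and Fas was 1.84-fold lower (-0.88 ± 0.17; edgeR adjusted p = 0.00267), with -0.47 and an adjusted p of 0.0701 under library totals. Tnfsf10, for TRAIL, had 29.8, 33.4 and 25.8 CPM in controls and 50.2, 58.8 and 41.7 in EPS (0.76 ± 0.16; edgeR adjusted p = 0.00340). Its death receptor Tnfrsf10b had 15.5, 14.1 and 12.8 CPM in controls and 6.65, 8.60 and 9.02 in EPS (-0.80 ± 0.18; edgeR adjusted p = 0.00541), with -0.35 and an adjusted p of 0.275 under library totals. For both pairs the ligand was thus called higher and the receptor lower under TMM scaling. Tnfrsf21, for the death-domain receptor DR6, was 1.84-fold higher.

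The related receptor genes Tnfrsf22, Tnfrsf23 and Tnfrsf26, of which the first 2 encode decoy receptors for TRAIL, lie within 78.2 kb on chromosome 7 (143607659 to 143685872). Tnfrsf26 had 1.07, 1.12 and 0.926 CPM in controls and 7.76, 7.85 and 14.6 in EPS, 9.62-fold higher (3.27 ± 0.34). Tnfrsf23 (0.46 ± 0.19) was not called, though it was with library totals (0.88, adjusted p = 0.0136), nor was Tnfrsf22 (-0.33 ± 0.19; 0.10 with library totals; called at -0.51 without EPS 3). Tnfrsf23 and Tnfrsf26 share exon bases with E230032D23Rik on the opposite strand. As members of 1 tandem family, they may also share reads, and the counting rule for such reads is not known here.

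Of the 5 members of the RANK and TWEAK group, 2 were higher and 1 lower, beside 29.2% and 30.4% of all genes. The filter fixed the direction of Tnfsf11. RANK ligand and its receptor were the members called higher, and the decoy receptor was not called. Tnfsf11, RANK ligand, known from osteoblasts, lymphocytes and lymphoid stroma, had 0.214, 0.198 and 0.0661 CPM in controls and 13.5, 9.59 and 19.6 in EPS (6.42 ± 0.46; edgeR adjusted p = 1.34e-05). Its receptor RANK, Tnfrsf11a, had 10.8, 11.5 and 11.2 CPM in controls and 21.8, 30.0 and 26.5 in EPS, 2.34-fold higher. The soluble decoy of RANK ligand, osteoprotegerin (Tnfrsf11b), had 7.21, 8.06 and 5.82 CPM in controls and 7.28, 11.9 and 5.80 in EPS, where the groups overlapped and no change was called (0.25 ± 0.30; -0.11 without EPS 2). In the TWEAK pair, which acts in tissue repair, the receptor Fn14 (Tnfrsf12a) was called lower (-0.77 ± 0.25, edgeR adjusted p = 0.0293) and the ligand Tnfsf12 was not called (-0.73 ± 0.30, edgeR adjusted p = 0.0672). The call for Tnfrsf12a was lost in 7 of 15 alternatives, with adjusted p from 0.0141 to 0.398: 0.129 without control 1, 0.0588 without control 2, 0.0952 without EPS 1 and 0.0697 without EPS 2 were among them.

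Of the 3 receptors of the ectodysplasin and neurotrophin branch, 1 was called higher and 1 lower, beside 29.2% and 30.4% of all genes. None changed by over 2-fold. Ngfr, the low-affinity neurotrophin receptor of nerve and some stromal cells, was called higher by 0.62 ± 0.18 (edgeR adjusted p = 0.0158), and without control 2 or control 3 the adjusted p was 0.0618 or 0.0627. Tnfrsf19, for TROY, was called lower by edgeR at -0.83 ± 0.30 (adjusted p = 0.0422). That call was lost without any 1 library except EPS 1, with adjusted p of 0.109, 0.115 and 0.0774 without controls 1 to 3, 0.0669 without EPS 2 and 0.0572 without EPS 3. Eda2r, the receptor of an ectodysplasin isoform, was not called (0.38 ± 0.38).

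Ratios of counts within a library do not depend on how libraries are scaled, and 8 pairs of members, chosen after their values were seen, were compared this way. In all 8 pairs the control and EPS ranges did not overlap, which the choice of pairs fixes, so they are a description. A two-sided exact permutation test over 20 splits gave p = 0.1 for every pair. Ranges without overlap always give that value, so the test decides nothing here. For every 100 Ltbr counts there were 1.32 to 2.03 Ltb counts in controls and 88.1 to 182 in EPS. Tnfrsf1b had 21.9 to 26.0 counts per 100 Tnfrsf1a counts in controls and 122 to 142 in EPS, and Tnfsf11 had 1.14 to 2.97 and 80.3 to 338 per 100 Tnfrsf11b counts. Cd40lg had at most 2.70 per 100 Cd40 counts in controls and 11.97 to 16.6 in EPS, and Fasl at most 0.334 per 100 Fas counts and 4.45 to 11.6. Tnfrsf4 and its neighbour Tnfrsf18 lie within 15.1 kb on chromosome 4 (156013843 to 156028895). Tnfrsf4 had 21.5 to 32.7 counts per 100 Tnfrsf18 counts in controls and 412.5 to 581 in EPS. Tnfrsf26 had 6.83 to 9.19 per 100 Tnfrsf22 counts in controls and 80.0 to 113 in EPS. Such ratios show unequal change of a pair and not which of the pair changed. The ratio of the ligand BAFF to its receptor moved the other way, from 562.5 to 1767 Tnfsf13b counts per 100 Tnfrsf13c counts in controls to 14.7 to 54.2 in EPS.

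**Figure D4:**
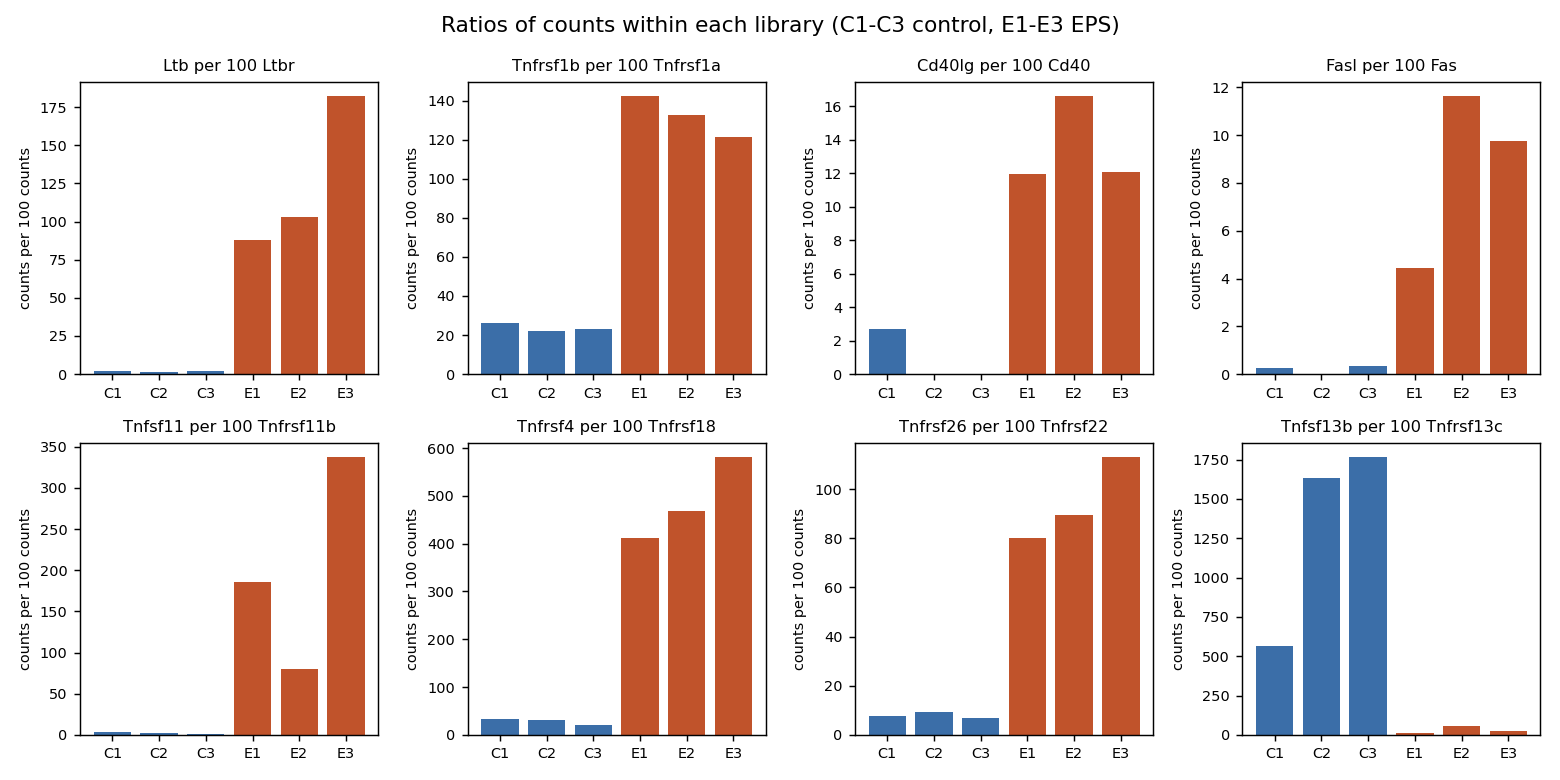
Counts of 1 member per 100 counts of another in each library (bars; C1 to C3 are controls, E1 to E3 EPS) for 8 pairs. In 7 pairs all EPS bars exceed all control bars, and for Tnfsf13b per 100 Tnfrsf13c the order is the reverse.

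Genes downstream of the receptors were followed in 7 lists, whose counts stand beside 29.2% of all genes called higher, 30.4% lower and 59.6% in all. The filter fixes the direction of any gene in these lists, or in the marker lists above, that passed only through EPS. Such genes were not counted here. Of 15 receptor adaptors and partners, 10 were higher and 1 lower (median 0.59). Traf1, an adaptor that NF-kappaB itself induces in lymphocytes, had 7.14, 7.47 and 8.80 CPM in controls and 65.1, 86.1 and 109 in EPS, and Traf3ip3, a TRAF3-binding protein of lymphocytes, was 32.6-fold higher. Trap1, a mitochondrial chaperone that carries the TNF receptor in its name, was the member that fell (-1.49 ± 0.10). Of 7 genes of the non-canonical NF-kappaB pathway, which the lymphotoxin beta, BAFF, CD40 and RANK receptors use, 6 were higher and none lower (median 1.84; 1.74 to 2.28 over the alternatives). Map3k14, the kinase NIK, rose by 1.84 ± 0.14, Nfkb2 by 2.03 ± 0.17 and Birc3, an inhibitor of NIK, by 2.35 ± 0.12.

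Of 18 canonical NF-kappaB genes, 12 were higher and 1 lower (median 0.58), led by Rel (2.76 ± 0.13) and by the feedback inhibitors Tnfaip3 (2.52 ± 0.13) and Nfkbie (3.21 ± 0.23). Of 12 extrinsic cell death genes, 7 were higher and none lower with a median of 0.59, a called share near that of all genes, with Ripk3, a kinase of necroptosis, at 1.70 ± 0.24, Bid at 0.89 ± 0.16 and Cflar, which blocks caspase-8, at 0.48 ± 0.08. The 6 shedding genes split evenly, 3 higher and 3 lower. Adam17, the protease that releases TNF and its receptors, had 46.7, 50.9 and 50.002 CPM in controls and 131, 98.0 and 101 in EPS. Its partner Rhbdf2 rose by 1.27 ± 0.11 while the related Rhbdf1 fell by 1.07 ± 0.10 on the log2 scale.

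Of 16 measured genes that TNF is known to induce, 13 were higher and 1 lower (median 2.53), among them the adhesion molecules Icam1 (2.04 ± 0.12) and Vcam1 (2.85 ± 0.18) and Tnfaip2 (2.12 ± 0.16). Of 7 genes that depend on the lymphotoxin beta receptor in lymphoid stroma, 5 were higher and 1 lower (median 4.38). Glycam1, an L-selectin ligand of high endothelial venules, had 0.357, 0.529 and 0.463 CPM in controls and 91.4, 159.5 and 163 in EPS. All 3 controls lie under the filter's level of 0.611 CPM, so the filter fixed the direction of Glycam1. Madcam1, an adhesion molecule of mucosal and lymphoid vessels, rose by 4.72 ± 0.26 and the lymphoid chemokine Ccl19 by 4.38 ± 0.30. Cell types that express these genes also differed between the groups, as the marker sums above show, and their part was not tested. Under library totals, 14 canonical NF-kappaB genes were higher and none lower, 10 cell death genes were higher, and the lymphoid stroma list had no lower gene.

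**Figure D5:**
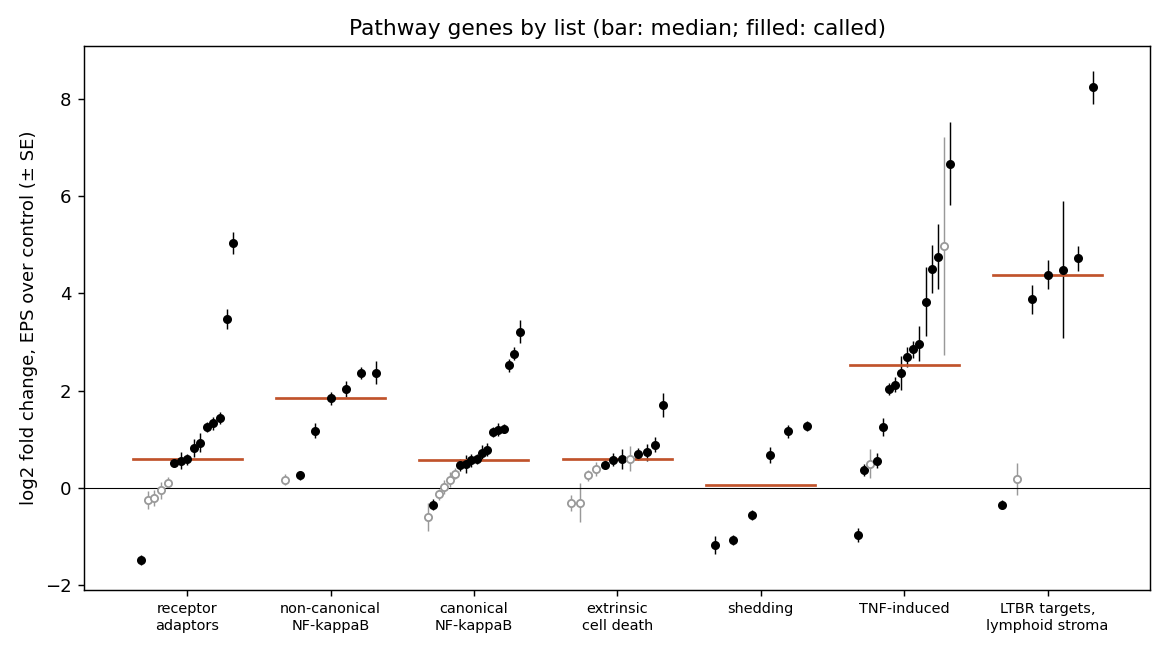
Log2 fold change of EPS over control (vertical axis, ± standard error) of each measured gene in 7 pathway lists; filled points passed an adjusted p of 0.05 and bars mark list medians. The medians are 0.59, 1.84, 0.58, 0.59, 0.06, 2.53 and 4.38 from left to right, against -0.02 for all genes.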

How the data were processed

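RNA sequencing of 6 peritoneum libraries, 3 control and 3 EPS, was analysed from the deposited table of raw read counts per gene symbol, which the authors did not normalize, as its whole numbers and differing totals show. Per the labels' protocols, polyadenylated RNA was selected and no step that marks strand is named. Reads were placed on mm10, per the submitters' processing notes. The sources used here do not name the aligner, the counter or the annotation.

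Genes passing edgeR's filterByExpr (13980; 963 untested) were compared with TMM factors and edgeR's quasi-likelihood F-test (edgeR 4.0.16, R 4.3.3, robust dispersions, no covariates, Benjamini-Hochberg adjustment, calls under 0.05). Standard errors are the log2 fold change divided by the square root of F. Gene models and exon lengths are from GENCODE vM21 (GRCm38), which held all 40 members. Counting intervals cover counting error only. The test was checked on simulated data. Members, lists and tests were chosen with earlier results of these data known. Named genes are members over 2-fold with a mean count of at least 10 and their partners, and up to 3 called genes of lowest adjusted p per pathway list; other members were added for completeness. Alternatives were RLE, upper-quartile and no scaling factors, 2 other count filters, DESeq2 1.42.0, limma-voom 3.58.1, a replicate block, each library left out, and controls 1 and 2 averaged, since their mean chi-square per gene of 4.41 was the lowest of any pair within a group; that last one was chosen after seeing the data.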

Additional observations from a re-analysis of the deposited data

How the results depend on the processing

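Counts of members called higher (24 to 27), ligands higher (11 to 12) and receptors higher (13 to 15) stayed within 1.5 times of the reported counts in all 15 alternatives. Counts called lower were small and moved: with library totals, 2182 genes, 0 members and 0 receptors were lower, and with controls 1 and 2 averaged, 3 members and 3 receptors. With 1 library left out, members called lower numbered 3 to 5, receptors called lower 3 to 5 and ligands called lower 0 to 1, the single ligand being Tnfsf13 without control 2. Library totals also turned Ltbr to 0.018; the cause was not tested beyond the shift of 0.42 in the median gene that this scaling brings. That scaling raised the share of calls that were higher to 72.2%, from 49.1%. The correlations of deviations between libraries of equal replicate number were 0.20, -0.10 and 0.24 for numbers 1 to 3. With 3 libraries per group, they cannot settle whether replicate numbers pair the libraries. With the replicate block, 3947 genes were higher and 4166 lower, as were 26 and 4 members, 12 and 0 ligands, and 14 and 4 receptors. Among the members, Tnfrsf12a alone lost its call under the block (adjusted p = 0.0602). Cd40lg and Fasl rest on 1 and 3 control counts; their fitted changes, 7.08 and 4.34, moved to 9.13 without control 1 and 5.18 without control 3, and depend on the prior count. For members under 1 CPM in controls, 13 in all, depth limits the size of the fold.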
